A study of Mus musculus with 9 samples.

Results

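Aqp1, Ednrb and Aqp9 are 3 of the 53465 genes in the count table. They were followed through synovial interstitial macrophages, synovial lining macrophages and bone marrow-derived macrophages (BMDM) of the mouse. The genes were listed by name: Aqp1 and Ednrb had been selected for a high level in the interstitial samples, with no numerical threshold, and Aqp9 was listed beside them as a second aquaporin. The interstitial levels of Aqp1 and Ednrb are therefore given as a description without a test. Aqp9 in every comparison, and all 3 genes between lining macrophages and BMDM, were tested. All 3 genes passed the filter on low counts.

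Aquaporins are membrane pores that let water follow osmotic gradients. Aqp1 is a water-selective channel best known from red blood cells, capillary endothelium and the kidney tubule. Aqp9 is an aquaglyceroporin, which passes glycerol, urea and other small solutes as well as water, and is known from hepatocytes and leukocytes. Ednrb encodes the endothelin type B receptor, a G protein-coupled receptor for the endothelin peptides. On endothelium this receptor drives release of relaxing factors and clears endothelin from the circulation, and in the neural crest it is required for melanocytes and enteric neurons. In the joint, macrophages form a sheet at the synovial lining and also lie in the connective tissue beneath it.

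The data are bulk RNA sequencing libraries, 3 in each of 3 groups. Interstitial macrophages (libraries D, E and F) were CD45+CD11b+F4/80+ GFP- cells sorted from hind paw synovium of healthy Cx3cr1-GFP mice, in which the fractalkine receptor locus drives green fluorescent protein (GFP). Lining macrophages (A, B and C) were CD45+CD11b+F4/80+ GFP+ cells, also from healthy Cx3cr1-GFP mice. BMDM (G, H and I) were cultured from marrow of C57BL/6 mice in MCSF-conditioned medium over 5 days, MCSF being the growth factor that turns marrow precursors into macrophages. The labels give no age, and nothing in them tells if replicate libraries came from different mice, so p-values reflect only the variation among the libraries at hand, which may be technical. BMDM differ from both sorted groups in strain label, tissue, culture and lack of a cell sort together, and these cannot be told apart.

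Gene-assigned reads numbered 2238261 to 10807462 in the interstitial libraries, 2194920 to 11137451 in the lining libraries and 19427273 to 22499823 in BMDM. On the scale of counts per 1000000 (CPM), a count of 0 therefore allowed a level of up to 0.278 to 1.34 CPM in interstitial, 0.269 to 1.37 CPM in lining and 0.133 to 0.154 CPM in BMDM libraries, taking 3 counts as the floor. Reads carry no molecular identifiers, so these floors and all intervals cover counting error only. The labelled identity was checked on 8 macrophage markers, which summed to 13440 to 23050 CPM in interstitial, 23680 to 30370 CPM in lining and 14820 to 18780 CPM in BMDM libraries, with none at 0 in any library. Of the 8, edgeR called Cd68 and Fcgr1 lower and none higher in interstitial than in lining, DESeq2 and limma-voom called Adgre1 and Lyz2 lower as well, and 5 were lower at an unadjusted p under 0.05. Cd68, an endosomal glycoprotein of macrophages, averaged 861 ± 101 CPM in interstitial and 1516 ± 205 CPM in lining libraries (SD, n = 3 each; log2 fold change -0.82 ± 0.15 SE, edgeR adjusted p = 0.00614), a call that held in all 17 alternatives, while that of Fcgr1 was lost in 5. The part of a macrophage share of RNA in the levels below was not tested. Cx3cr1, the gene that the sort used, averaged 4.93 ± 2.66 CPM in interstitial, 708 ± 59.0 CPM in lining and 278 ± 38.2 CPM in BMDM libraries (SD, n = 3 each). Adgre1, which encodes F4/80, averaged 825 ± 153, 1191 ± 111 and 675 ± 37.5 CPM in interstitial, lining and BMDM libraries, and Csf1r, the receptor for MCSF, 5349 ± 1380, 5923 ± 623 and 2558 ± 86.9 CPM in the same groups (SD, n = 3 each). E and B were the deepest libraries of their groups.

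Aqp1 (ENSMUSG00000004655) lies on the forward strand of chromosome 6, 55336432 to 55348555 in GRCm38, with 1 annotated transcript of 4 exons and 2627 exon bases. Ednrb (ENSMUSG00000022122) lies on the reverse strand of chromosome 14, 103814625 to 103844402, with 3 coding transcripts of 7 to 8 exons and 4266 exon bases. Aqp9 (ENSMUSG00000032204) lies on the reverse strand of chromosome 9, 71110659 to 71168682, with 10 transcripts, of which 3 are coding with 6 to 10 exons, and 4143 exon bases. The Aqp9 locus is overlapped on the opposite strand by the genes Gm47268 and Gm32511, which had no count in any library, and reads were counted by strand.

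The 250 bases before an annotated start of each gene are shown because Aqp1 and Ednrb share their order over the groups while Aqp9 does not (RefSeq, GRCm38.p6, written 5′ to 3′ on the strand of the gene). The windows are chr6:55336049-55336298 on the forward strand, chr14:103843702-103843951 on the reverse strand and chr9:71162634-71162883 on the reverse strand. None of them holds an exon base of its gene, and the Ednrb and Aqp9 windows lie inside the outer ends that the count table gives for the gene. Capitals mark a match to a searched motif.
Aqp1: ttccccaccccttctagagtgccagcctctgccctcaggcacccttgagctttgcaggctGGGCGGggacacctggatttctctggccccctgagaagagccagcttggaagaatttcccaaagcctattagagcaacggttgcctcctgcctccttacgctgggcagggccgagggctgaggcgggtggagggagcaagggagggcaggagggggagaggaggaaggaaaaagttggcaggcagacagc
Ednrb: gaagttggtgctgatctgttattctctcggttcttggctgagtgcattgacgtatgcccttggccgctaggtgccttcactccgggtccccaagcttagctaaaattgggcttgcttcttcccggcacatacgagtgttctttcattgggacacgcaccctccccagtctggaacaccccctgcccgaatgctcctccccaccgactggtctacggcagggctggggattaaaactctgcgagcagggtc
Aqp9: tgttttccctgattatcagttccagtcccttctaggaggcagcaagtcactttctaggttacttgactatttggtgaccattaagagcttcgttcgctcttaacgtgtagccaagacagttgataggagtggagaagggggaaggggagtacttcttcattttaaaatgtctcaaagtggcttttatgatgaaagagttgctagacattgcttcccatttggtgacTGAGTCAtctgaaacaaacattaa

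The Aqp1 window was 62.0% G or C with 5 CpG dinucleotides, the Ednrb window 56.8% with 11, and the Aqp9 window shown 41.6% with 3. The medians over 32851 such windows of 27025 genes were 52.4% and 6 CpG dinucleotides. The Aqp1 window held 1 GC box (GGGCGG, positions -190 to -185 from the start), a motif found in 32.7% of all windows on either strand. RefSeq gives Aqp9 a second start, whose window (chr9:71163290-71163539, not shown because 128 of its bases are exonic) was 40.4% G or C with 1 CpG and held none of the 5 motifs. The Aqp9 window shown held 1 match to AP-1 (TGANTCA, as TGAGTCA, positions -24 to -18), found in 6.75% of windows. The other motifs searched on both strands were an ETS site (AGGAAGT, in 7.69% of windows), a TATA box (TATAAA, in 12.4%) and a MAF site (TGCTGAC, in 3.81%). None of the 5 motifs was in the Ednrb window, and the windows shown had no motif match in common.

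Each comparison was fitted over 12610 genes, with edgeR's quasi-likelihood test and a threshold of 0.05 on the adjusted p for a call. In interstitial relative to lining macrophages 259 genes (2.05%) were called higher and 471 (3.74%) lower. In interstitial relative to BMDM 23.4% of genes were called higher and 21.3% lower, and in lining relative to BMDM 23.1% higher and 20.5% lower. Of the 3 genes, Aqp1 and Ednrb were called higher and Aqp9 lower in lining than in BMDM, which is a common outcome in that comparison. Aqp9 was also called higher in interstitial than in lining macrophages. Nothing is read from these shares for Aqp1 and Ednrb where the selection used the comparison. Counts of called list members below are to be read beside these shares. A gene near 0 in BMDM could pass the filter only through the sorted libraries, which favours a call of higher against BMDM. Likewise, passing the filter through BMDM favours a call of lower in lining for a gene near 0 there. Aqp9 is such a gene, since it failed the filter when only the sorted groups were fitted. Where the libraries of 2 groups are said below not to overlap, this is a description, with no share over all genes beside it. Bulk libraries cannot tell fewer expressing cells from less RNA per cell, so a group's level may come from all of its cells or from a few.

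Aqp1 was among the most abundant transcripts of the interstitial libraries, lower in the lining libraries and barely counted in BMDM. Its level was 3242, 3905 and 3779 CPM in interstitial libraries D, E and F. It was 733.8, 1241 and 1138 CPM in lining libraries A, B and C. It was 0.519, 0.397 and 0.646 CPM in BMDM libraries G, H and I, from 12, 8 and 14 counts. No library of one group reached the range of another, and the order of the 3 groups was the same whichever library of each was taken. The lowest interstitial library stood 2.61 times above the highest lining library.

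On the per-length scale (TPM, counts per exon base brought to a total of 1000000 in every library), Aqp1 averaged 4558 ± 587 TPM in interstitial, 1218 ± 362 TPM in lining and 0.648 ± 0.151 TPM in BMDM libraries (SD, n = 3 each). By TPM it ranked 14 to 28 among the genes of an interstitial library, 75 to 137 in a lining library and 12395 to 13072 in a BMDM library. The ratio of Aqp1 to Adgre1 in TPM was 3.997, 6.53 and 6.35 in interstitial D, E and F, against 0.707, 1.26 and 1.32 in lining A, B and C. The ranges of this ratio did not overlap either.

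The fitted log2 fold change of Aqp1 was 1.81 ± 0.20 (SE) for interstitial over lining, or 3.51-fold. It was 12.74 ± 0.32 for interstitial over BMDM, or 6820-fold. Both values describe the property by which the gene was selected. Between lining macrophages and BMDM, which that selection did not use, Aqp1 was 10.92 ± 0.31 log2 units higher in lining, 1944-fold (edgeR quasi-likelihood test, adjusted p = 8.98e-10), with 3 of 3 lining libraries above all BMDM libraries.

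**Figure D1:**
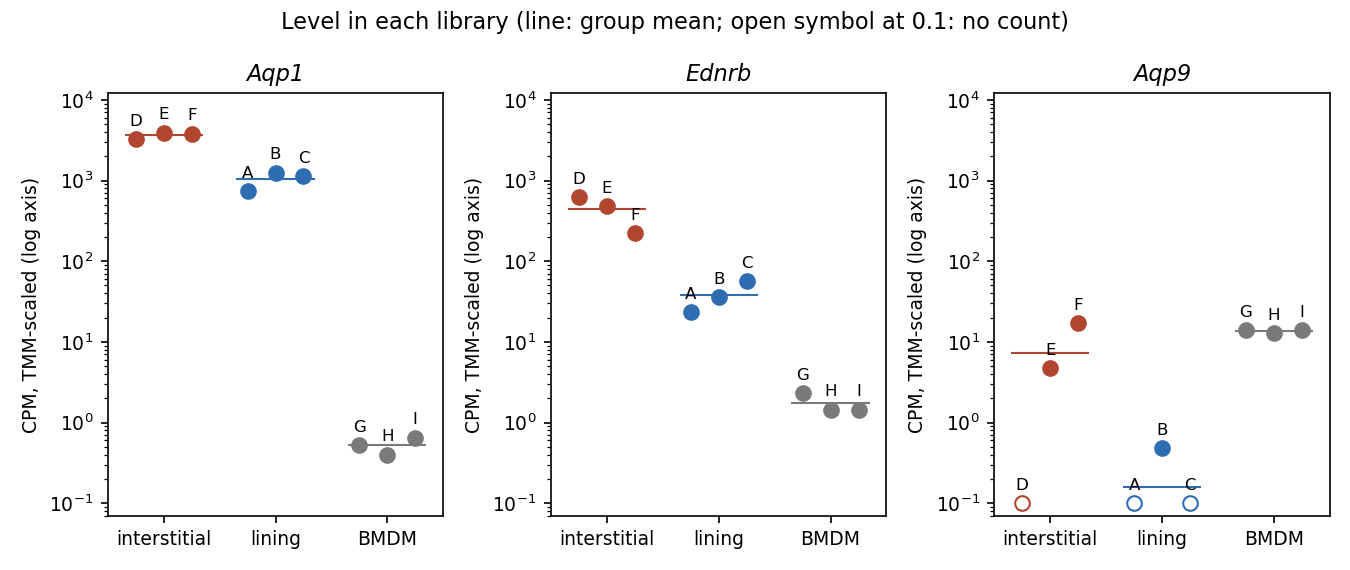
TMM-scaled CPM (log axis) of Aqp1, Ednrb and Aqp9 in each of the 9 libraries, with points for libraries, lines for group means and open symbols at 0.1 for libraries with no count. Aqp1 and Ednrb descend over interstitial, lining and BMDM with no overlap between groups, and Aqp9 is between 12.8 and 14.0 CPM in BMDM, between 0 and 17.0 CPM in interstitial and at or below 0.477 CPM in lining libraries.

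Ednrb followed the same order of groups as Aqp1 but with a steeper step between the sorted groups and more spread within them. Its level was 621, 482 and 222 CPM in interstitial libraries D, E and F. It was 23.3, 35.5 and 56.7 CPM in lining libraries A, B and C. It was 2.29, 1.44 and 1.43 CPM in BMDM libraries G, H and I, from 53, 29 and 31 counts. Interstitial library F was the lowest of its group, and lining library C the highest of its group, yet F stood 3.92 times above C. No groups overlapped.

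Ednrb averaged 340 ± 155 TPM in interstitial, 28.2 ± 14.2 TPM in lining and 1.32 ± 0.382 TPM in BMDM libraries (SD, n = 3 each). It ranked 296 to 922 by TPM in the interstitial libraries, 3692 to 6479 in the lining libraries and 11143 to 11860 in BMDM. The rank ranges of the 3 groups did not overlap. The fitted log2 fold change was 3.51 ± 0.43 (SE) for interstitial over lining, or 11.4-fold, and 7.99 ± 0.54 for interstitial over BMDM, or 253-fold, both given as a description. In lining macrophages Ednrb was 4.47 ± 0.49 log2 units higher than in BMDM, 22.2-fold (edgeR, adjusted p = 8.51e-05), with all 3 lining libraries above all 3 BMDM libraries.

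The proportion between the water channel and the receptor differed from group to group. In TPM, Aqp1 stood at 8.48, 13.2 and 27.7 times Ednrb in interstitial libraries D, E and F, and at 51.2, 56.8 and 32.6 times in lining libraries A, B and C. In BMDM it was the smaller of the pair, at 0.368, 0.448 and 0.733 times Ednrb in G, H and I. The 3 groups did not overlap in this ratio, and F and C were again the libraries nearest to each other. No test was made of the ratio between the sorted groups, since the selection used both genes there.

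Aqp9 had another order of groups, highest and most even in BMDM, nearly absent from lining libraries and uneven in the interstitial ones. It had 0, 52 and 80 counts in interstitial libraries D, E and F, or 0, 4.73 and 17.0 CPM. It had 0, 5 and 0 counts in lining libraries A, B and C, or 0, 0.477 and 0 CPM. It had 321, 257 and 303 counts in BMDM libraries G, H and I, or 13.9, 12.8 and 14.0 CPM. Interstitial library F lay above every BMDM library, E below them, and D could not be told from the empty lining libraries. The 0 in D allows up to 1.34 CPM, which is below the levels of E and F. Per length Aqp9 averaged 5.70 ± 6.76 TPM in interstitial, 0.117 ± 0.202 TPM in lining and 10.7 ± 0.482 TPM in BMDM libraries (SD, n = 3 each).

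Aqp9 fell by 5.47 ± 1.20 (SE) on the log2 scale in lining macrophages relative to BMDM (edgeR, adjusted p = 0.00327), with all 3 lining libraries below all 3 BMDM libraries. The filter, which Aqp9 passed through the BMDM libraries, favours this call. The group sums of 5 and 881 counts, scaled by library totals, give BMDM 44.9 times the lining level, with a counting interval of 19.2 to 139. All 5 lining counts came from library B. Without B the lining libraries had no count, and the BMDM level was at least 22.9-fold higher against a floor of 3 counts over the group.

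Between interstitial and lining macrophages Aqp9 was 4.62 ± 1.22 (SE) log2 units higher in interstitial, just past the threshold (edgeR, adjusted p = 0.0481), in 2 of 3 interstitial libraries. The counts of 132 and 5 give a ratio of 23.9, with a counting interval of 9.97 to 74.7. Over 16 alternatives the adjusted p ran between 0.00412 and 0.165, and 11 of them lost the call. Of the refits that each left out 1 library, the one without D alone kept the call. Without F the log2 fold change was 3.30, without lining B the interstitial level was at least 12.1-fold higher, and without both F and C, an alternative chosen after seeing the data, the log2 fold change was 3.03 (adjusted p = 0.133).

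Interstitial macrophages and BMDM were not told apart in Aqp9: the log2 fold change was -0.85 ± 0.83 (SE; edgeR, adjusted p = 0.429), and the libraries overlapped. Without interstitial F it was -2.21 (adjusted p = 0.0442), and without both F and C it was -2.10 (adjusted p = 0.0331).

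**Figure D2:**
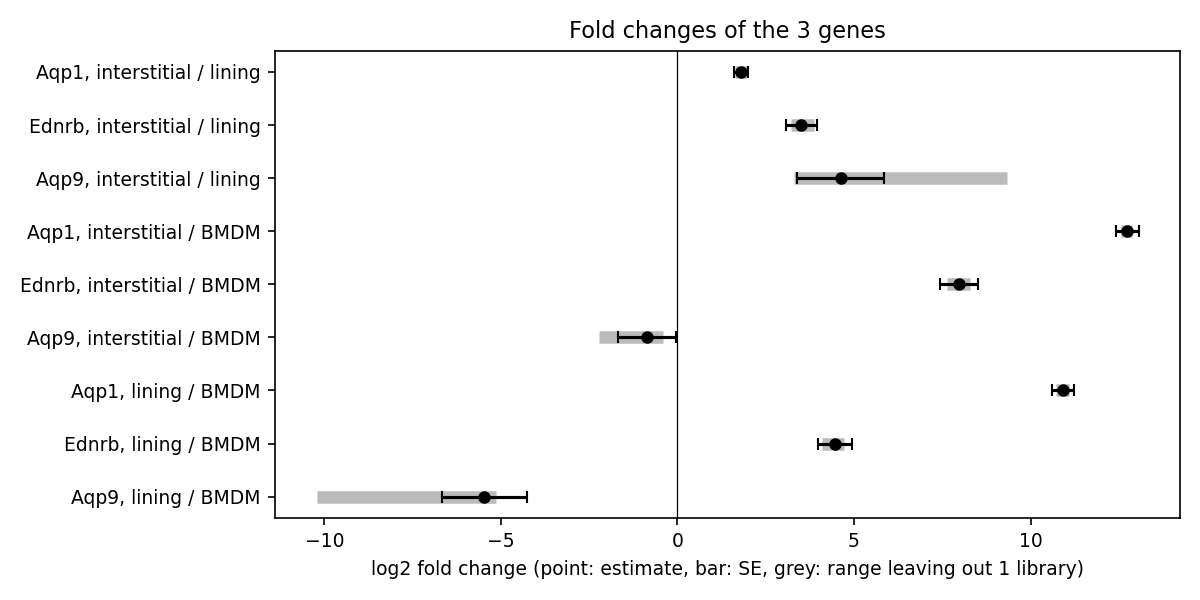
Log2 fold changes (points) with standard errors (bars) of the 3 genes in the 3 comparisons, first-named group over second, with grey bands for the range over fits that each leave out 1 library. The Aqp1 and Ednrb bands stay close to their points, while the Aqp9 band for interstitial over lining runs over 3.30 to 9.34 and for lining over BMDM over -10.22 to -5.15; the far ends come from leaving out lining library B, after which the lining count is 0 and the fitted value is no bound.

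Among the other 10 aquaporins, none reached a level near Aqp1 in any interstitial or lining library (the plot of aquaporins and the endothelin system per length). In BMDM Aqp1 was itself barely counted. Only Aqp2, the vasopressin-regulated channel of the collecting duct, passed the filter on low counts, with 13 counts over the interstitial, 24 over the lining and 6 over the BMDM libraries. Aqp2 averaged 0.799 ± 1.16 CPM in interstitial, 2.98 ± 2.51 CPM in lining and 0.0915 ± 0.0445 CPM in BMDM libraries (SD, n = 3 each). It was called higher in lining than in BMDM (log2 fold change 4.78 ± 1.42 SE; edgeR, adjusted p = 0.0169), a call that was lost without lining C or without any 1 BMDM library, at an adjusted p of up to 0.0925. The 2 comparisons with interstitial libraries gave adjusted p = 0.512 against lining and 0.0978 against BMDM.

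Aqp3, another aquaglyceroporin, did not pass the filter, and its counts lay almost wholly in 1 library. It had 0, 0.182 and 26.8 CPM in interstitial D, E and F, against 0.485, 1.05 and 0 CPM in lining A, B and C and 0.0461 to 0.0865 CPM in BMDM. Interstitial F thus had the highest level of Aqp3 as well as of Aqp9. Mip and Aqp12 had no count anywhere, and Aqp4, Aqp5, Aqp6, Aqp7, Aqp8 and Aqp11 did not pass the filter. Aqp1 and Aqp9 therefore sat beside 1 tested and 9 untested members of their family, and in the interstitial over lining comparison the tested one, Aqp2, was not called.

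**Figure D3:**
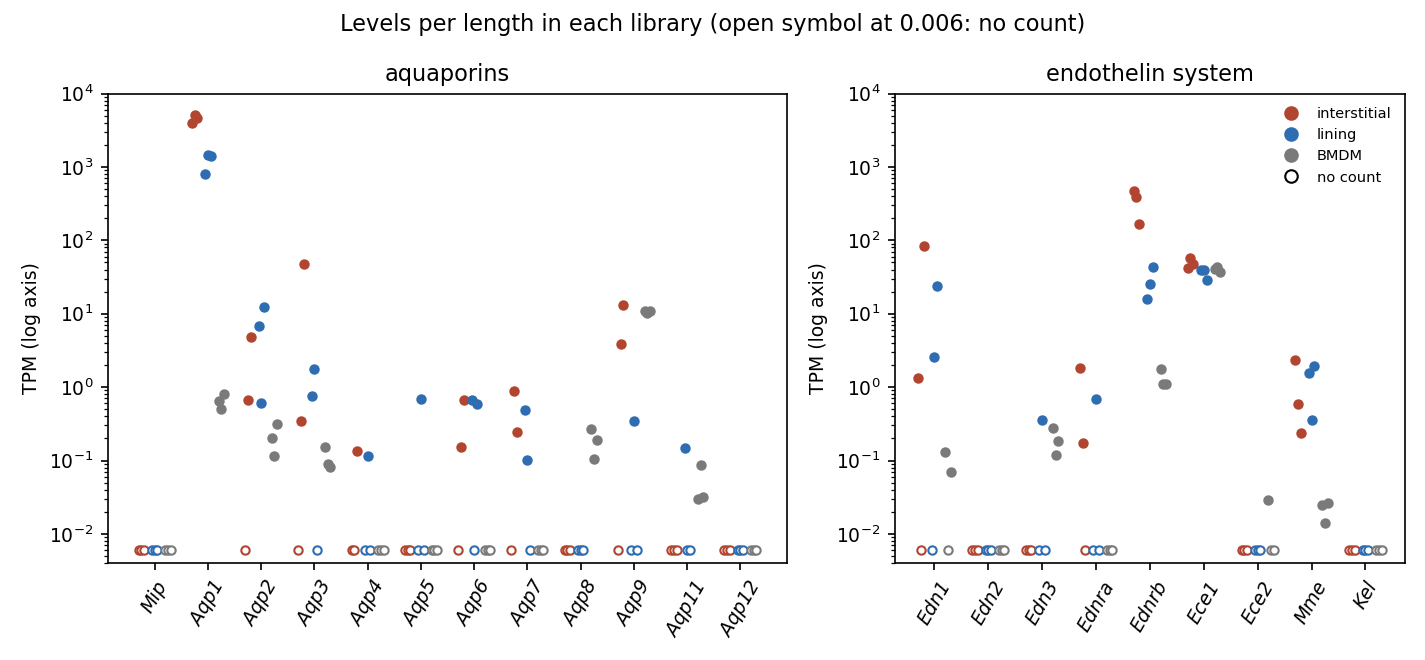
Levels per length (TPM, log axis) of 12 aquaporins and 9 genes of the endothelin system, 1 point per library, grouped by interstitial, lining and BMDM, with open symbols at 0.006 for libraries with no count. Aqp1 and Ednrb stand above the other members of their lists in the interstitial libraries, and Ece1 lies at similar levels in all 3 groups.

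Beside Ednrb, the endothelin list held 8 genes of ligands, a receptor and peptidases. Of these 3 were tested, and none was called between interstitial and lining macrophages by edgeR, DESeq2 or limma-voom, nor passed an unadjusted p of 0.05, while edgeR called Edn1 and Mme higher in interstitial than in BMDM and Mme higher in lining than in BMDM. DESeq2 and limma-voom called Mme alone in each of those comparisons. The median over those 3 tested genes was 0.33 log2 units for interstitial over lining, against 0.01 over all genes. Edn1 and Mme, with 3 and 5 counts over the BMDM libraries, passed the filter through the sorted libraries. No median against BMDM is therefore read. Ece1, the converting enzyme that cuts the precursor of endothelin to the active peptide, averaged 78.6 ± 9.11 CPM in interstitial, 62.8 ± 13.9 CPM in lining and 64.8 ± 4.33 CPM in BMDM libraries (SD, n = 3 each). Its adjusted p was 0.373 for interstitial over lining, 0.224 for interstitial over BMDM and 0.875 for lining over BMDM, none past the threshold. Mme, neprilysin, a membrane peptidase that degrades endothelin among other peptides, averaged 3.76 ± 4.08 CPM in interstitial, 4.80 ± 3.01 CPM in lining and 0.0761 ± 0.0231 CPM in BMDM libraries. Mme was 5.34 ± 1.18 log2 units higher in interstitial than in BMDM (adjusted p = 0.00307) and 5.72 ± 1.20 higher in lining than in BMDM (adjusted p = 0.00223).

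Edn1, the gene of the ligand endothelin-1, was found mainly in 2 libraries. Its level was 0.887, 0 and 55.7 CPM in interstitial D, E and F, against 0, 1.81 and 15.8 CPM in lining A, B and C. BMDM had 3 counts in all. Edn1 was highest in F and C, where Ednrb was the lowest of the interstitial libraries and the highest of the lining libraries. The interstitial sum of Edn1 was 312 times that of BMDM, with a counting interval of 106 to 1523, and the fit gave adjusted p = 0.0371, which was lost in 7 of 15 alternatives at up to 0.509. Against lining libraries the adjusted p was 0.692, and between lining and BMDM 0.0822. The type A receptor Ednra had 10, 13 and 0 counts over the interstitial, lining and BMDM libraries, so Ednrb supplied nearly all endothelin receptor counts of the sorted groups. Edn3 had 0, 5 and 16 counts in the same order, Ece2 1 count in BMDM, and Edn2 and Kel none.

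Receptors for other vasoactive mediators were taken as a wider comparison for Ednrb, since they also read signals of vessels. Of 21 such genes 12 were tested. In interstitial over lining macrophages none was called by edgeR, 1 was higher at an unadjusted p under 0.05 and none lower, and DESeq2 and limma-voom called Ramp2; the median log2 fold change was 0.44. In interstitial over BMDM 5 were called higher and none lower, with a median of 1.65, and in lining over BMDM 4 were higher and 1 lower, with a median of 1.64. Over all genes 23.4% were higher and 21.3% lower in the first of these comparisons, and 23.1% and 20.5% in the second. Ramp2, a partner protein that shapes the adrenomedullin receptor, averaged 6.62 ± 0.903 CPM in interstitial, 0.541 ± 0.200 CPM in lining and 0.0615 ± 0.107 CPM in BMDM libraries (SD, n = 3 each). It was 6.50 ± 1.153 log2 units higher in interstitial than in BMDM (edgeR, adjusted p = 0.00071), and against lining its value was 3.45 with adjusted p = 0.0839.

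Npr1, a natriuretic peptide receptor that makes cyclic GMP, was 4.80 ± 0.96 log2 units higher in interstitial than in BMDM (adjusted p = 0.00161). It was 3.13 ± 0.95 higher in lining than in BMDM (adjusted p = 0.0185), which was lost in 4 alternatives. Npr2, its relative, had 26 counts in interstitial and 18 in lining libraries, at least 30.7-fold and 23.5-fold higher than the BMDM libraries, which had no count. Ptgir, the prostacyclin receptor, fell by 2.57 ± 0.83 on the log2 scale in lining relative to BMDM (adjusted p = 0.0325), a call lost in 7 alternatives. Like Ednrb, Ramp2, Npr1 and Npr2 were therefore higher in interstitial macrophages than in BMDM, at far lower counts.

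Markers of other cells were summed in each library, because Aqp1, Ednrb and Aqp9 are all known from other cell types (the plot of the 3 genes beside marker sums). The summed 9 erythroid markers were 425.6, 13.6 and 29.3 CPM in interstitial D, E and F, against 164, 18.8 and 48.1 CPM in lining A, B and C and 0.894 to 4.66 CPM in BMDM. Of these 4 were tested, and edgeR, DESeq2 and limma-voom called 0 between interstitial and lining, with 0 at an unadjusted p under 0.05, while edgeR called 3 higher in each sorted group than in BMDM. Epb42 was at 0 in both sorted groups, and Klf1 in interstitial. Hba-a1, an alpha globin gene whose reads can be split with its near-identical copy Hba-a2, alone made up 411 CPM in D and 112.5 CPM in A, and without it the sums were 14.6, 8.19 and 7.86 CPM in D, E and F, against 51.9, 9.64 and 6.38 CPM in A, B and C. Aqp1 was lowest where these sums were highest, in D within the interstitial and in A within the lining group, with or without Hba-a1, although Hbb-bs, a beta globin gene, was nearly even at 6.65, 6.73 and 5.74 CPM in D, E and F. The part of erythroid RNA in the Aqp1 level was not tested.

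The summed 14 endothelial markers were 114.8, 84.9 and 567 CPM in interstitial D, E and F, against 55.3, 51.4 and 363 CPM in lining A, B and C and 144.8 to 151.8 CPM in BMDM. Flt1 alone made up 408 CPM in F and 306 CPM in C, and without it the sums were 114, 77.9 and 159 CPM in interstitial, 40.7, 41.7 and 57.1 CPM in lining and 141 to 148 CPM in BMDM. Vwf and Kdr made up most of the BMDM sums, at 93.7 ± 5.93 and 46.0 ± 2.76 CPM (SD, n = 3). Vwf averaged 47.25 CPM in interstitial and 28.8 CPM in lining libraries, with 93.5 CPM in F, and Kdr 4.15 and 1.64 CPM. Cldn5, Ptprb and Robo4 were at 0 in BMDM, and no endothelial marker was at 0 throughout a sorted group. Of 12 tested, edgeR called 1, Pecam1, higher and 0 lower in interstitial than in lining, with 4 higher at an unadjusted p under 0.05 and a median log2 fold change of 1.51. The Pecam1 call (adjusted p = 0.0446) was lost in 10 of 17 alternatives, limma-voom among them, at up to 0.17, while DESeq2 and limma-voom called Plvap higher. Against BMDM edgeR called 8 higher and 1 lower in interstitial, and 4 higher and 2 lower in lining. Apart from Kdr, Vwf, Cldn5 and Egfl7, each endothelial marker averaged highest in interstitial and lowest in BMDM libraries, as Aqp1 and Ednrb did.

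Ednrb was lowest of the interstitial libraries in F but highest of the lining libraries in C, the libraries with the largest endothelial sum of each group. In the lining group the sums without Flt1 also had the order of Ednrb, and in the interstitial group they did not. Of the 14 endothelial genes taken singly, 4 had the order of Ednrb over the interstitial libraries (Cdh5, Emcn, Plvap and Ptprb) and 2 the opposite order, and 3 had its order over the lining libraries (Tie1, Plvap and Ptprb) and 2 the opposite. Aqp1 was highest in E and in B, and 1 of the 14 had its order in each group. Plvap, a protein of endothelial diaphragms, was at 21.3, 13.2 and 4.88 CPM in D, E and F, against 0.485, 1.34 and 3.38 CPM in A, B and C. Cdh5, endothelial cadherin, was at 10.2, 9.37 and 5.10 CPM in D, E and F, against 1.46, 4.77 and 0.376 CPM in A, B and C. Per length, Plvap averaged 21.6 TPM and Cdh5 6.44 TPM in interstitial libraries, against 340 TPM for Ednrb and 4558 TPM for Aqp1. The part of endothelial RNA in the levels of Aqp1 and Ednrb was not tested. Leaving out F and C together gave log2 fold changes for interstitial over lining of 1.86 for Aqp1 and 4.17 for Ednrb.

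The summed 8 neutrophil markers were at or near 0 in the libraries without an Aqp9 count. They were 0, 78.6 and 83.0 CPM in interstitial D, E and F, against 0, 6.87 and 1.13 CPM in lining A, B and C and 41.3 to 53.3 CPM in BMDM. Library D, with no Aqp9 count, had no count of any of the 8, and E and F, with Aqp9 counts, had the highest sums. Retnlg, a resistin-like gene of neutrophils, alone made up 20.6 CPM in E and 62.2 CPM in F, and without it the sums were 0, 58.1 and 20.8 CPM in D, E and F, against 0, 6.78 and 1.13 CPM in A, B and C and 41.0 to 53.1 CPM in BMDM. F, with the highest Aqp9 level of all libraries, then lay below E and below BMDM, and Retnlg alone of the 8 had the order of Aqp9 over the interstitial libraries. Of 5 tested markers none was called between interstitial and lining by edgeR, DESeq2 called Ngp, 3 were higher at an unadjusted p under 0.05, and the median log2 fold change was 2.68. In lining relative to BMDM 3 were called lower, and in interstitial relative to BMDM none in either direction. Ly6g had no count in lining and 1 count in each of the other groups. The part of neutrophil RNA in the Aqp9 level was not tested.

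**Figure D4:**
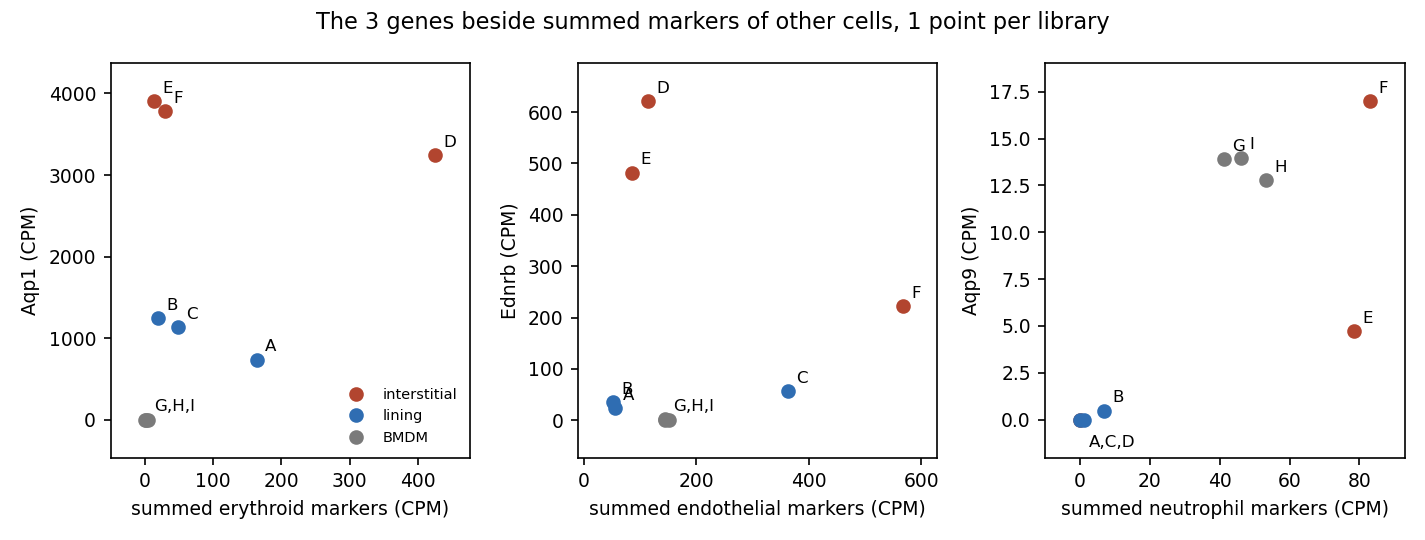
Level (CPM) of Aqp1, Ednrb and Aqp9 against the summed CPM of erythroid, endothelial and neutrophil markers, 1 point per library. Aqp1 is lowest of its group in D and A, where erythroid sums are 425.6 and 164 CPM, Ednrb is lowest of the interstitial group in F and highest of the lining group in C, where endothelial sums are 567 and 363 CPM, and Aqp9 is at 0 in D, A and C, where neutrophil sums are at most 1.13 CPM.

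For the neural crest lineages that need Ednrb, the 8 Schwann and melanocyte markers summed to 95.8 to 141.5 CPM in interstitial, 85.6 to 131 CPM in lining and 119 to 141 CPM in BMDM libraries, with Cdh19, Dct and Tyrp1 at 0 in every library. Mbp, which also gave nearly all of these sums in BMDM, left 0 to 3.82 CPM for the other 7 in interstitial and 0 to 7.35 CPM in lining libraries, with all 7 at 0 in D and A. Sums of 8 fibroblast markers were 191 to 693 CPM in interstitial, 171 to 304 CPM in lining and 2.08 to 2.88 CPM in BMDM, all 8 higher in each sorted group than in BMDM. Sums of 7 pericyte and smooth muscle markers were 86.0 to 265 CPM in interstitial, 694 to 1004 CPM in lining and 55.0 to 81.2 CPM in BMDM. Cspg4 gave most of the sum in nearly every library. Without it the sums were 43.0, 19.4 and 10.2 CPM in D, E and F, against 11.15, 8.11 and 9.76 CPM in A, B and C and 1.04 to 1.84 CPM in BMDM. These had the order of Ednrb over the interstitial libraries but not over the lining libraries. Sums of 6 dendritic cell markers were 89.4 to 141 CPM in interstitial, 3.88 to 40.6 CPM in lining and 3.37 to 4.27 CPM in BMDM, and 1 of 4 tested, Cd209a, was called higher in interstitial than in lining (edgeR, adjusted p = 0.0442), which was lost in 9 of 17 alternatives at up to 0.239. Cd209a, a lectin of dendritic cells, was at 115, 51.2 and 32.5 CPM in D, E and F, against 2.42, 9.54 and 22.9 CPM in A, B and C, the order of Ednrb in both sorted groups. Without Cd209a the dendritic cell sums were 25.27, 38.12 and 59.47 CPM in D, E and F, against 1.455, 29.3 and 17.65 CPM in A, B and C. Those sums had the opposite order to Ednrb over the interstitial libraries, and over the lining libraries they did not have its order. Dendritic cell sums, and the means of most endothelial markers, thus had the same order of groups as Aqp1 and Ednrb. Each fibroblast marker apart from Col1a1 and Lum had that order of means too, as did each pericyte and smooth muscle marker apart from Cspg4. Between interstitial and lining, edgeR called 0 of 8 fibroblast markers, with a median log2 fold change of 0.73. DESeq2 and limma-voom called Dcn and Pdgfra higher in interstitial. Of 5 tested pericyte and smooth muscle markers, all 3 tools called Cspg4 lower in interstitial and 0 higher. The edgeR call of Cspg4 was lost in 10 of 17 alternatives. The part of all these markers in the differences of Aqp1 and Ednrb was not tested.

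Genes were ranked by how nearly their profile over the 9 libraries matched each of the 3 genes, as the root-mean-square difference of log2 CPM after centring each gene on its own mean, over 12609 other genes. Nearest to Aqp1 were Egr1 at 0.899, Tppp3 at 0.925, Dnm1 at 1.07 and C4b at 1.07, against a median of 5.51 over all genes. Egr1, an immediate early transcription factor, had nearly equal means in the sorted groups, 699 ± 226 CPM in interstitial and 748 ± 104 CPM in lining, against 0.225 ± 0.123 CPM in BMDM (SD, n = 3 each). Tppp3, a tubulin-binding protein, averaged 665 ± 298, 351 ± 51.8 and 0.341 ± 0.0780 CPM in interstitial, lining and BMDM libraries. The measure for Aqp1 is thus set mainly by the gap to BMDM. Ednrb stood at rank 82 from Aqp1, at 2.68, and Aqp9 at 7.48.

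Nearest to Ednrb were Coro2b at 0.406, Ltbp4 at 0.579, Pf4 at 0.712 and Gprc5c at 0.717, against a median of 3.31. Coro2b, an actin-binding coronin, averaged 89.0 ± 18.4 CPM in interstitial, 8.57 ± 2.76 CPM in lining and 0.185 ± 0.120 CPM in BMDM libraries. Its interstitial levels were 108, 88.4 and 70.9 CPM in D, E and F, in the order that Ednrb had. Pf4, the chemokine platelet factor 4, averaged 1307 ± 550, 297 ± 53.1 and 11.99 ± 2.91 CPM in interstitial, lining and BMDM libraries. Ltbp4, which binds latent TGF-β in the matrix, and Gprc5c, an orphan receptor, averaged 54.0 ± 18.5 and 124 ± 39.1 CPM in interstitial libraries. All 4 had their highest level in D among the interstitial libraries, as Ednrb did, which the choice by profile favours.

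Nearest to Aqp9 were Tmtc2 at 0.256, Rhof at 0.662, Rhov at 0.686 and Trem1 at 0.739, against a median of 2.84. All 4 had no count in D, A and C, the libraries without an Aqp9 count. Tmtc2 was at 0, 3.46 and 12.5 CPM in interstitial D, E and F, against 0, 0.191 and 0 CPM in lining A, B and C and 10.9 to 11.2 CPM in BMDM. Trem1, a receptor of neutrophils and monocytes that amplifies inflammation, was at 0, 2.002 and 15.5 CPM in D, E and F, against 0, 2.004 and 0 CPM in A, B and C and 16.5 to 22.8 CPM in BMDM. The choice by profile fixes these zeros and this unevenness, which are given as a description.

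Of the genes next to the 3 loci, only Mindy4 and Aldh1a2 passed the filter on low counts. Mindy4, 16209 bases before Aqp1, averaged 8.37 ± 1.92 CPM in interstitial, 5.35 ± 2.95 CPM in lining and 2.83 ± 0.405 CPM in BMDM libraries. Its means had the order of groups of Aqp1, with far smaller steps. The edgeR adjusted p was 0.618 for interstitial over lining, 0.036 for interstitial over BMDM and 0.18 for lining over BMDM. Ghrhr, 27739 bases after Aqp1, had no count in any library. Slain1 and the long noncoding RNA 4930432J09Rik, 109717 and 133225 bases from Ednrb, did not pass the filter on low counts. Slain1 had 0, 0 and 34 counts over the interstitial, lining and BMDM libraries, and its BMDM mean of 0.518 CPM was below what a count of 0 allowed in A, C, D and F. Next to Aqp9, Lipc at 158432 bases was not tested, and Aldh1a2, a retinoic acid-making enzyme at 47106 bases, had 118 counts in interstitial, 30 in lining and 0 in BMDM libraries. Aldh1a2 was at least 139-fold higher in interstitial and 39.2-fold higher in lining than in BMDM, where Aqp9 had its most even level, and its adjusted p for interstitial over lining was 0.762.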

How the data were processed

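RNA was sequenced from 9 macrophage samples in 3 groups of 3. Per the labels, RNeasy RNA (500 ng) went into TruSeq stranded mRNA libraries read as single 101 bp reads. Per the file headers, the authors deposited raw counts of reads over exons per Ensembl gene, made with featureCounts 1.6.1 in reverse-stranded mode on GRCm38 release 91; the submitters' processing notes also name cutadapt 1.15 and STAR 2.5.4a. Of 53465 gene IDs, 53274 matched a symbol.

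From these counts, low genes were removed with edgeR's filterByExpr at a minimum count of 10 and total of 15. Library sizes were scaled by TMM (trimmed mean of M-values), and the rest was fitted over all 9 samples with 1 mean per group in edgeR 4.0.16 (R 4.3.3, limma 3.58.1), by a 2-sided quasi-likelihood test with Benjamini-Hochberg adjustment over 12610 genes and 6 residual degrees of freedom. CPM are TMM-scaled, and TPM use the exon length in the table. Count ratios have exact 95% intervals. Likeness used log2 CPM with a prior count of 2. DESeq2 1.42.0, voom, other scalings, other filters, fits of only the groups compared and leaving out each library were tried as alternatives. The procedure was tested on simulated data.

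The 3 genes and every gene list were chosen with earlier results of these data known. Beyond the 3 genes, those named are the tested aquaporin and endothelin genes, the called genes with the 3 largest changes of each further list, the 4 nearest profiles and the flanking genes. Aqp3, Flt1, Vwf, Kdr, Cldn5, Egfl7, Plvap, Cdh5, Pecam1, Emcn, Ptprb, Tie1, Adgre1, Csf1r, Cd68, Fcgr1, Lyz2, Hba-a1, Hbb-bs, Retnlg, Mbp, Ngp, Lrrc8b, Lrrc8c, Cd209a, Col1a1, Lum, Dcn, Pdgfra and Cspg4 were singled out after their values were seen. The level of 1 marker gene is not reported here.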

Additional observations from a re-analysis of the deposited data

How the results depend on the processing

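Over 17 alternatives Aqp1 kept log2 fold changes of 1.63 to 1.98 for interstitial over lining, 12.57 to 12.88 for interstitial over BMDM and 10.73 to 11.09 for lining over BMDM. Ednrb kept 3.22 to 4.17, 7.63 to 8.30 and 4.11 to 4.72 in the same comparisons. The lining over BMDM calls of all 3 genes held throughout, with adjusted p of at most 3.59e-07 for Aqp1, 0.00166 for Ednrb and 0.0201 for Aqp9. Aqp9 for interstitial over lining lost its call with limma-voom (3.603), in the unfiltered fit (4.61) and in the fit leaving out both interstitial F and lining C (3.03), and ran between 3.30 and 9.34 when 1 library was left out; with only those groups fitted it failed the filter and gave no value. For interstitial over BMDM it gained a call without C and F (-2.10), and ran between -2.21 and -0.39 when 1 library was left out. Genes called higher in interstitial than lining numbered 259, against 589 with DESeq2, 111 with only those groups, 445 without C and F, and 120 to 371 when 1 library was left out. Genes called lower numbered 471, against 709, 255 and, when 1 library was left out, 276 to 517. The causes were not tested. No paired analysis was possible because the labels give no replicate letter to more than 1 group and name no shared animal or day. Libraries A, C and D have 2194920 to 2700843 counts, and Aqp9 levels under 1.11 to 1.37 CPM could not be seen in them.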

Other observations

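Lists of cell volume regulation and glycerol handling genes were followed as well. Of 16 genes of cell volume and ion transport, 15 were tested. In interstitial relative to lining macrophages 1 was called lower and none higher by edgeR, 4 were higher and 2 lower without adjustment at p under 0.05, and DESeq2 called Lrrc8b, Lrrc8c and Slc5a3 higher; edgeR gave a median log2 fold change of -0.02. The gene called lower was Slc6a6, the taurine transporter, at 1525 ± 106 CPM in interstitial and 2501 ± 363 CPM in lining libraries (SD, n = 3 each; log2 fold change -0.71 ± 0.14 SE, edgeR adjusted p = 0.00972); the call was lost when only those groups were fitted (adjusted p = 0.0705). In interstitial relative to BMDM 4 of the 15 were higher and 1 lower (median 0.10), against 23.4% and 21.3% of all genes. In lining relative to BMDM 5 were higher and 3 lower (median 0.19), against 23.1% and 20.5%. Nothing particular to the list is read from these counts. Slc5a3, which imports the osmolyte myo-inositol, averaged 7.97 ± 2.23 CPM in interstitial, 2.32 ± 1.90 CPM in lining and 133 ± 42.8 CPM in BMDM libraries, and fell by 4.02 ± 0.38 on the log2 scale in interstitial and by 5.45 ± 0.43 in lining relative to BMDM. Atp1b1, a sodium pump subunit, rose by 3.02 ± 0.75 and 4.08 ± 0.77, and Lrrc8a, the essential subunit of the volume-regulated anion channel, by 1.51 ± 0.31 and 1.43 ± 0.31, in interstitial and lining relative to BMDM.

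All 8 genes of glycerol and triglyceride handling were tested, and none was called between interstitial and lining macrophages by edgeR. At an unadjusted p under 0.05 there was 1 higher and 1 lower gene, and the list had a median log2 fold change of -0.13. DESeq2 called Lpl in that comparison. In interstitial relative to BMDM 1 of the 8 was higher and 3 lower (median -0.61), against 23.4% and 21.3% of all genes. In lining relative to BMDM 1 was higher and 2 lower (median -0.32), against 23.1% and 20.5%. Gk, glycerol kinase, averaged 6.50 ± 5.77 CPM in interstitial, 18.3 ± 2.70 CPM in lining and 77.7 ± 6.82 CPM in BMDM libraries, and fell by 3.38 ± 0.56 on the log2 scale in interstitial and by 2.10 ± 0.53 in lining relative to BMDM. Lpl, lipoprotein lipase, fell by 1.64 ± 0.34 in interstitial and decreased by 2.59 ± 0.35 in lining. Pnpla2, adipose triglyceride lipase, rose by 0.77 ± 0.16 and 0.82 ± 0.16.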
